A study of Mus musculus with 18 samples.

Results

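Complexes III, IV and V are the last 3 protein complexes of mitochondrial oxidative phosphorylation, and cytochrome c carries electrons between complexes III and IV. The genes described here are the 45 rows of the expression table whose symbols start with Uqcr, with Cox4 to Cox8 or with Atp5, together with Cycs and Cyc1, out of 24341 rows in all. They comprise 9 genes of complex III (8 Uqcr genes and Cyc1), 1 gene of cytochrome c (Cycs), 18 genes of complex IV and 17 genes named for complex V. Atp5s and Atp5sl carry the complex V name without being subunits of the enzyme, so complex V is also counted as 15 genes without them. All members but Cox8c, which was listed at the floor of 0.01 FPKM in all 18 libraries, passed the filter on low values, leaving 44 tested members. FPKM scales fragment counts by transcript length and library size, so levels of different genes can be set side by side per length.

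The libraries came from hearts of C57BL/6 mice labelled 12 weeks old, with 3 libraries in each of 6 groups formed by 2 genotypes and 3 treatments. The genotypes were wild type (WT) and a cardiac knockout of Med13, a subunit of the Mediator kinase module, labelled cKO; the labels do not name the Cre driver. The mice ate normal chow, or a diet with propylthiouracil (PTU), a drug that blocks thyroid hormone synthesis, for 4 weeks from 8 weeks of age, or that diet followed by injections of the active hormone triiodothyronine (T3) on 3 days. Every T3 heart had therefore also had PTU, and no group received T3 alone. The design asks how loss and return of thyroid hormone change cardiac transcripts, and whether Med13 matters for it. Nothing in the labels says that each library is from an animal of its own, so the p-values reflect how far these libraries spread, some of which may be technical.

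Complex III passes electrons from ubiquinol to cytochrome c through cytochrome c1 (Cyc1) and the Rieske iron-sulfur protein (Uqcrfs1), and complex IV, cytochrome c oxidase, passes them from cytochrome c to oxygen. Both pump protons out of the matrix, and complex V, the ATP synthase, lets them flow back through its rotating ring of c subunits while its F1 head makes ATP. Heart tissue is rich in these complexes, and several complex IV subunits come in a form common to most tissues (Cox6a1, Cox7a2, Cox8a) and a form typical of heart and skeletal muscle (Cox6a2, Cox7a1, Cox8b). Thyroid hormone is long known to raise mitochondrial oxidative capacity, and cytochrome c is a classical hormone-responsive gene.

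The sequences upstream of 4 members on which the results turn are shown: Cycs and Cox6a1, which rose after T3, Cox7a1, which fell on PTU and rose after T3, and Atp5g1, whose share of the c-subunit transcripts moved in both directions. They were taken from RefSeq on build GRCm38.p6, in a table holding 35 of the 45 members; Cox6a2 had no entry. The stretch for Cycs is chr6:50566570-50566819 on the minus strand, 250 bases, and that for Cox6a1 is chr5:115348982-115349208 on the minus strand, 227 bases. The stretch for Cox7a1 is chr7:30183921-30184143 on the plus strand, 223 bases, and that for Atp5g1 is chr11:96075671-96075881 on the minus strand, 211 bases. Each runs 5′ to 3′ towards the gene and ends before its annotated start. Capitals mark matches on either strand to the binding motifs GCATGCGC of nuclear respiratory factor 1 (NRF1) and TGACGTCA, the cyclic AMP response element.
Cycs: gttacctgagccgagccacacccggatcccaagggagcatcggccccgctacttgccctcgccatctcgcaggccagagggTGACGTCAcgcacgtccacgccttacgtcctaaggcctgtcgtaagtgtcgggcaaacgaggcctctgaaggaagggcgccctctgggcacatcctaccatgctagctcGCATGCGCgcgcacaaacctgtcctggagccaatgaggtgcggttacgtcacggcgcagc
Cox6a1: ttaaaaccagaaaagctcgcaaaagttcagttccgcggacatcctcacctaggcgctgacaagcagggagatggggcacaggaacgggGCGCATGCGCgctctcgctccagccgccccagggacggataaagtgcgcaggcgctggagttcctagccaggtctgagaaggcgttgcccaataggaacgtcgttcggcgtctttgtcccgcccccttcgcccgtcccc
Cox7a1: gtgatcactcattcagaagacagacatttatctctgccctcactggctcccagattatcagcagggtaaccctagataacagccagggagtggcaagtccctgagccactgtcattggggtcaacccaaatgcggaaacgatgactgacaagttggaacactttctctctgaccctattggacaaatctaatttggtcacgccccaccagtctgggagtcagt
Atp5g1: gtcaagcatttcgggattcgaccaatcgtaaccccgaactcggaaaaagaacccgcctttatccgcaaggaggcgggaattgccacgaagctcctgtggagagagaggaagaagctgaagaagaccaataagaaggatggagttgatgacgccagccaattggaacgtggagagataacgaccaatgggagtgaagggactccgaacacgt
The Cycs stretch held 1 match to each of those motifs, and the Cox6a1 stretch held 2 NRF1 matches, 1 on each strand, which overlap within GCGCATGCGC. Neither the Cox7a1 nor the Atp5g1 stretch matched any motif searched. Over the windows of the 35 members held in the table, the NRF1 motif matched in 5 (Atp5g2, Atp5k, Atp5l, Cox6a1 and Cycs), the cyclic AMP response element in 2 (Cycs and Uqcrfs1), the ETS motif in 3, the estrogen-related receptor motif in 1 and the direct repeat in none. These are counts of genes. Counted by window, as the shares below are, the matches in the same order were in 5, 2, 3, 1 and 0 of 39. Among 32851 RefSeq windows of 250 bases, 2.26% held the NRF1 motif and 1.55% the cyclic AMP response element. The others searched were the ETS motif CCGGAAGT, in 2.88% of windows, the estrogen-related receptor motif TCAAGGTCA, in 0.387%, and AGGTCA repeated with 4 bases between, the thyroid hormone receptor's direct repeat, in 0.0152%. A match is a match of letters only, and binding was not measured in these libraries.

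The 45 members took 9.09% to 11.4% of each library's summed FPKM. Med13 stood between 4.93 and 6.96 FPKM over the 18 libraries and did not separate the genotypes, so the groups are called hearts labelled cKO. No mitochondrially encoded subunit was analysed here. All 7 cardiomyocyte markers were present in every library, with a summed level of 44451 to 100165 FPKM. Each group held 1 heart with the highest summed level of 6 atrial markers, up to 2604 FPKM in WT PTU replicate 1 against 368 in the next WT PTU heart; leaving out these 6 hearts, 1 per group, also leaves 2 hearts a group. The members of a heart tended to lie on the same side of their group means: 41 of 44 lay above in WT PTU replicate 3, all 44 in cKO PTU replicate 3 and 43 in WT PTU with T3 replicate 3, whereas 3 lay above in WT PTU with T3 replicate 2 and 2 in cKO PTU replicate 2. Members are therefore no independent replicates of a treatment, and the part of this common shift in the counts was not tested. These hearts are whole tissue, in which fewer cells of a type and less RNA per cell cannot be told apart.

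**Figure D1:**
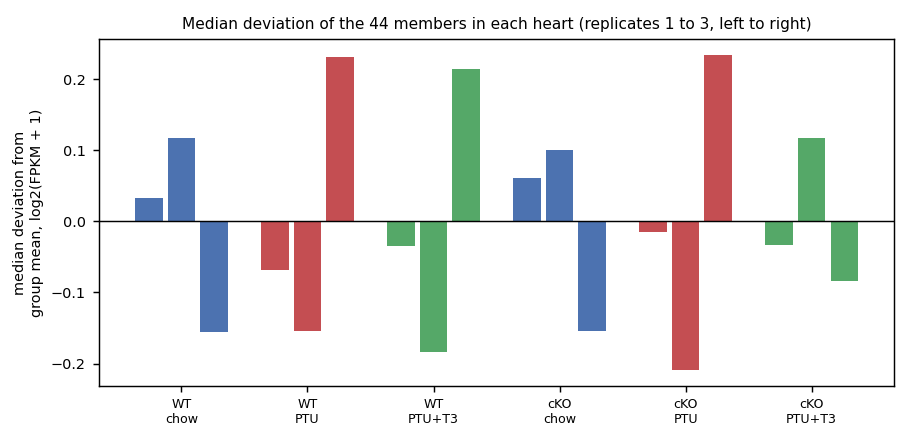
Each bar is 1 heart, replicates 1 to 3 from left to right in each group, and its height is the median over the 44 tested members of their deviation from the group mean in log2(FPKM + 1). The medians run from -0.21 in cKO PTU replicate 2 to 0.23 in replicate 3 of both PTU groups.

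After T3, some members of each complex were called higher against PTU in both genotypes. In WT hearts their share was near that of all genes for complex V and little above it for complexes III and IV. PTU alone moved few members in WT hearts. A member was called at an adjusted p under 0.05 (limma on log2(FPKM + 1), Benjamini-Hochberg over all 12587 tested genes). For T3 against PTU in WT hearts, 13 of 44 members were called higher (29.5%) and 2 lower (4.55%), beside 22.3% and 21.8% of all tested genes. In hearts labelled cKO 28 were called higher (63.6%) and none lower, beside 24.9% and 21.8% of all genes. The median member difference on the log2 scale was 0.18 in WT hearts and 0.47 in hearts labelled cKO, where the median of all genes lay within 0.01 of 0. Values of the groups did not overlap for 14 of 44 members in WT hearts, beside 50.7% of all genes, and for 30 of 44 in hearts labelled cKO, beside 55.4% of all genes. For PTU against chow in WT hearts, 3 members were called higher (6.82%) and 4 lower (9.09%), close to the 8.02% and 8.76% of all genes. In hearts labelled cKO none was called higher and 11 lower (25%), beside 6.44% and 9.59% of all genes, with 40 of the 44 below 0 and a median of -0.24. The T3 and PTU comparisons of a genotype share its 3 PTU libraries, so the fall on PTU and the rise after T3 are not independent observations.

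How many members were called rested on single hearts. In WT hearts the T3 count of 13 higher came to 8 without WT PTU replicate 1 or replicate 2 and to 6 without WT PTU with T3 replicate 3, and the 2 lower came to 1 without WT PTU replicate 1 or 3 or WT PTU with T3 replicate 1 or 2. Of the 15 WT members called in either direction, 7 were called in each of the 6 fits without 1 heart, and 6 without the 6 hearts highest in atrial markers. Of the 28 calls in hearts labelled cKO 19 were called in each such fit and 18 without the atrial-high hearts. The 3 WT members called higher on PTU came to 0 without WT PTU replicate 1 or 3 or WT chow replicate 1 or 3, and the 4 lower to 2 without WT PTU replicate 1 or 2. The 11 lower in hearts labelled cKO came to 3 without cKO PTU replicate 1 or cKO chow replicate 1, to 4 without cKO chow replicate 2 and to 6 without cKO PTU replicate 2. Without the 6 atrial-high hearts no member was called on PTU in WT hearts, and 1, Cox7a1, was called in hearts labelled cKO.

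Scaling moved the balance of calls as well. Quantile normalization gave 18 higher and 7 lower after T3 in WT hearts and 21 and 5 in hearts labelled cKO, and 4 higher and 13 lower on PTU in WT hearts. With each library set to its own median member, a scale that by construction asks which members moved more than the rest, 13 were higher and 13 lower after T3 in WT hearts and 15 and 12 in hearts labelled cKO. On that scale the median of all genes moved by -0.14 in WT hearts and by -0.43 in hearts labelled cKO, so a fall there is relative to the other members. The directions of Cycs, Cyc1, Cox6a1, Cox7a1, Cox8a, Atp5g1 and Atp5d after T3, given below, were the same on every scale.

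**Figure D2:**
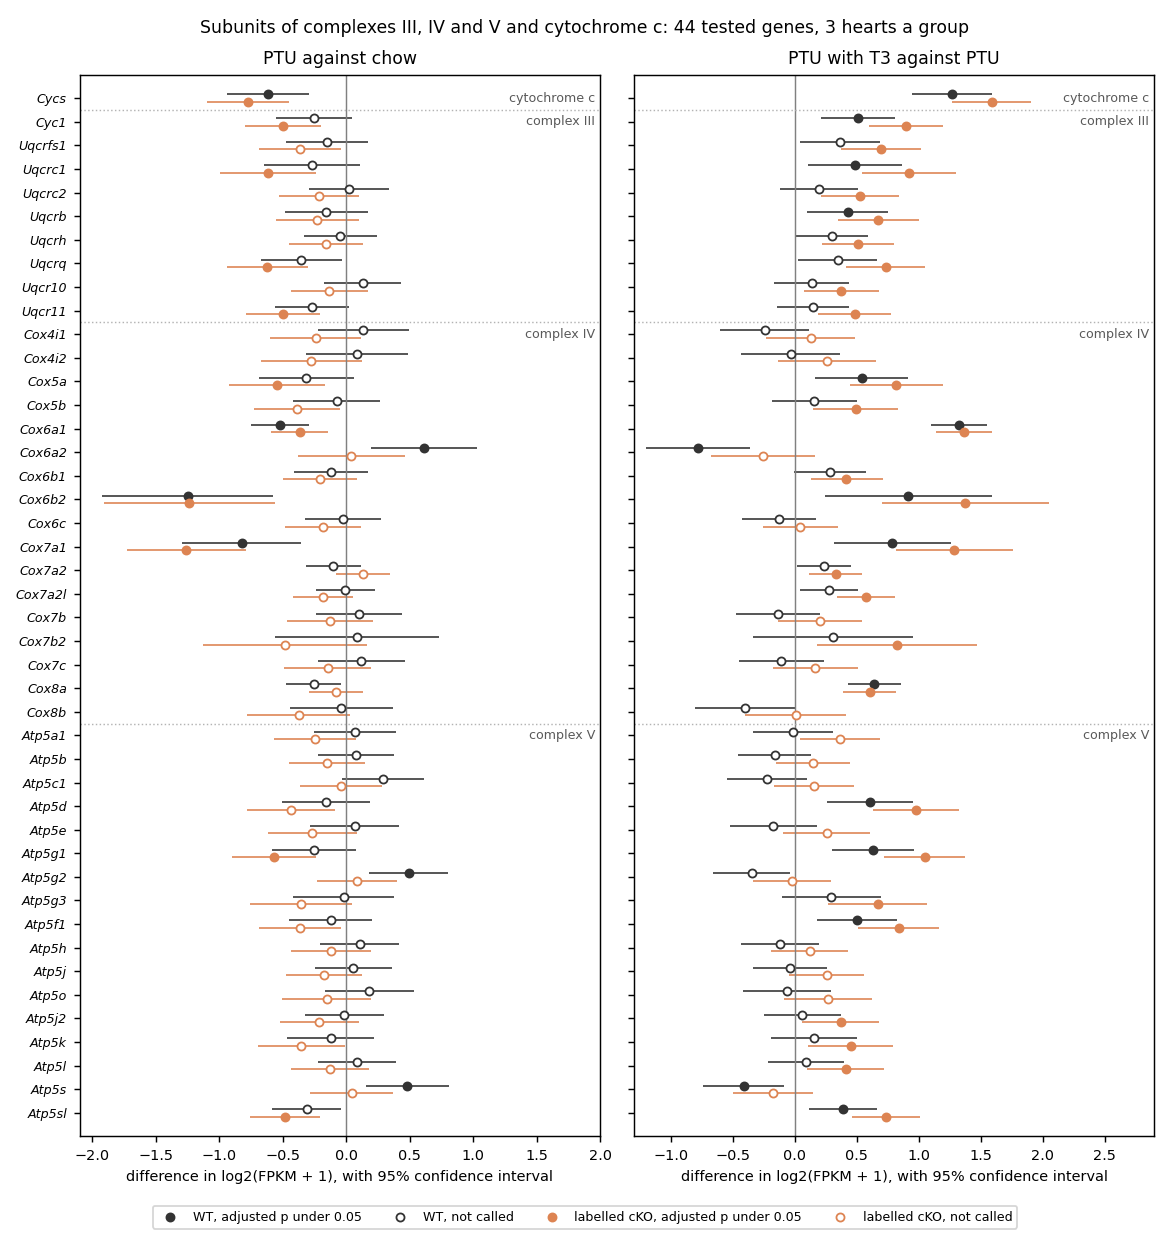
The difference in log2(FPKM + 1) of each tested member is plotted by complex for PTU against chow (left) and for T3 against PTU (right), with its 95% confidence interval. Dark points are WT hearts, orange points hearts labelled cKO, and filled points are called. After T3, Cycs at 1.27 and Cox6a1 at 1.33 lie farthest to the right in WT hearts, and Cox6a2 at -0.79 lies farthest to the left.

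Among the members the levels of WT chow hearts ranged over several orders of magnitude. The highest was Atp5b, the catalytic beta subunit of the F1 head, at 3766 ± 522 FPKM (SD, n = 3). Cox7a1, the muscle form of subunit 7a, followed at 3575 ± 948 FPKM, within the spread of Atp5b. Cycs held rank 37 at 436 ± 25.5 FPKM, and Cox6a1 held rank 39 at 266 ± 21.4 FPKM. At the low end Atp5sl stood at 34.6, Atp5s at 15.3, Cox4i2 at 12.8, Cox6b2 at 5.74 and Cox7b2 at 0.587 FPKM. The 2 members that rose most after T3 in WT hearts were thus among the less abundant ones. Many of these short genes have processed pseudogene copies, and the sources used here do not give how reads with several matches were counted, so single levels are uncertain to that extent.

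Cytochrome c fell on PTU and rose after T3 in both genotypes, as did Cox6a1, Cox6b2 and Cox7a1 of complex IV. Cycs (chromosome 6, 50562563 to 50566538, minus strand, GRCm38) encodes the somatic cytochrome c, the mobile electron carrier that also triggers caspase activation when released. In WT hearts it measured 419, 466 and 424 FPKM on chow, 273, 242 and 348 on PTU and 642, 637 and 785 on PTU with T3. The hearts labelled cKO measured 495, 517 and 366 FPKM on chow, 273, 238 and 288 on PTU and 810, 883 and 712 on PTU with T3. Every PTU heart was below every chow heart, and every T3 heart was above every chow heart, in both genotypes. Cycs fell by 0.62 on the log2 scale on PTU in WT hearts (SE 0.152, adjusted p = 0.0114 by limma) and by 0.77 in hearts labelled cKO (adjusted p = 0.00335). After T3 it rose by 1.27 in WT hearts (adjusted p = 8.198e-06) and by 1.59 in hearts labelled cKO (adjusted p = 7.734e-07), called in each fit without 1 heart. The fall on PTU in WT hearts had an adjusted p of 0.0516 without WT PTU replicate 2, and of 0.128 without the 6 atrial-high hearts, where the fall in hearts labelled cKO had 0.0789.

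Complex III members were called in the higher direction after T3. In WT hearts 3 of 9 rose and none fell, beside 22.3% and 21.8% of all tested genes, with a median difference of 0.35. In hearts labelled cKO all 9 rose, beside 24.9% of all tested genes, with a median of 0.67. Quantile normalization gave 6 and 7 higher, and the scale set to the median member gave 5 in each genotype, in no case with a lower call. Without the atrial-high hearts none was called in WT hearts and 6 in hearts labelled cKO. On PTU none of 9 was called in WT hearts, beside 8.02% of all tested genes higher and 8.76% lower. In hearts labelled cKO 4 fell, beside 9.59% of all tested genes.

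Cyc1 encodes cytochrome c1, the haem protein that hands electrons to cytochrome c (chromosome 15, 76343523 to 76346260, plus strand). Its WT values were 1079, 1144 and 892 FPKM on chow, 823, 780 and 1012 on PTU and 1257, 1067 and 1398 on PTU with T3. For the hearts labelled cKO the values were 1088, 1241 and 955 FPKM on chow, 752, 707 and 861 on PTU and 1407, 1534 and 1377 on PTU with T3. The T3 hearts lay above all PTU hearts in both genotypes, whereas WT PTU replicate 3 overlapped the chow range. Cyc1 rose after T3 by 0.51 (SE 0.140, adjusted p = 0.00793 by limma) in WT hearts and by 0.90 in hearts labelled cKO; the WT call had an adjusted p of 0.0716 without the atrial-high hearts. On PTU it fell by 0.50 in hearts labelled cKO (adjusted p = 0.0249), a call lost without cKO PTU replicate 1 or 2 or cKO chow replicate 1 or 2 at adjusted p-values of 0.0740 to 0.110.

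Uqcrc1, a core subunit of the matrix side, and Uqcrb, a small subunit near the ubiquinone site, were the other WT calls. Uqcrc1 measured 921, 1020 and 715 FPKM on chow, 711, 641 and 839 on PTU and 1072, 781 and 1250 on PTU with T3 in WT hearts. Its cKO values were 996, 1121 and 811 FPKM on chow, 627, 569 and 708 on PTU and 1137, 1327 and 1135 on PTU with T3. The WT groups overlapped, since T3 replicate 2 at 781 lay below PTU replicate 3 at 839, whereas the T3 hearts labelled cKO lay above all their PTU hearts. Uqcrb measured 1627, 1688 and 1504 FPKM on chow, 1276, 1254 and 1864 on PTU and 1863, 1826 and 2125 on PTU with T3 in WT hearts. Hearts labelled cKO measured 1558, 1788 and 1447 FPKM, then 1362, 1133 and 1629, then 2051, 2256 and 2204 in the same order. PTU replicate 3 was the high WT PTU heart for both genes, so that Uqcrb overlapped between PTU and T3 in WT hearts but not in hearts labelled cKO. Uqcrc1 rose after T3 by 0.48 (adjusted p = 0.0374 by limma) and Uqcrb by 0.43 (adjusted p = 0.0354) in WT hearts, and both calls were lost without any one of WT PTU replicate 1 or 2 or T3 replicate 1 or 3, at adjusted p-values of 0.0562 to 0.172. The cKO rises were 0.92 for Uqcrc1 and 0.67 for Uqcrb. The other rises in hearts labelled cKO were Uqcrq at 0.73, Uqcrfs1, the Rieske protein, at 0.70, Uqcrc2 at 0.53, Uqcrh at 0.51, Uqcr11 at 0.48 and Uqcr10 at 0.38. The call of Uqcr10 was lost without any one of the hearts compared but cKO PTU replicate 3 (adjusted p of 0.0562 to 0.147), and that of Uqcr11 was lost without cKO PTU replicate 2 (adjusted p = 0.0520). The falls on PTU in hearts labelled cKO were those of Cyc1, Uqcrq by 0.62, Uqcrc1 by 0.61 and Uqcr11 by 0.50.

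**Figure D3:**
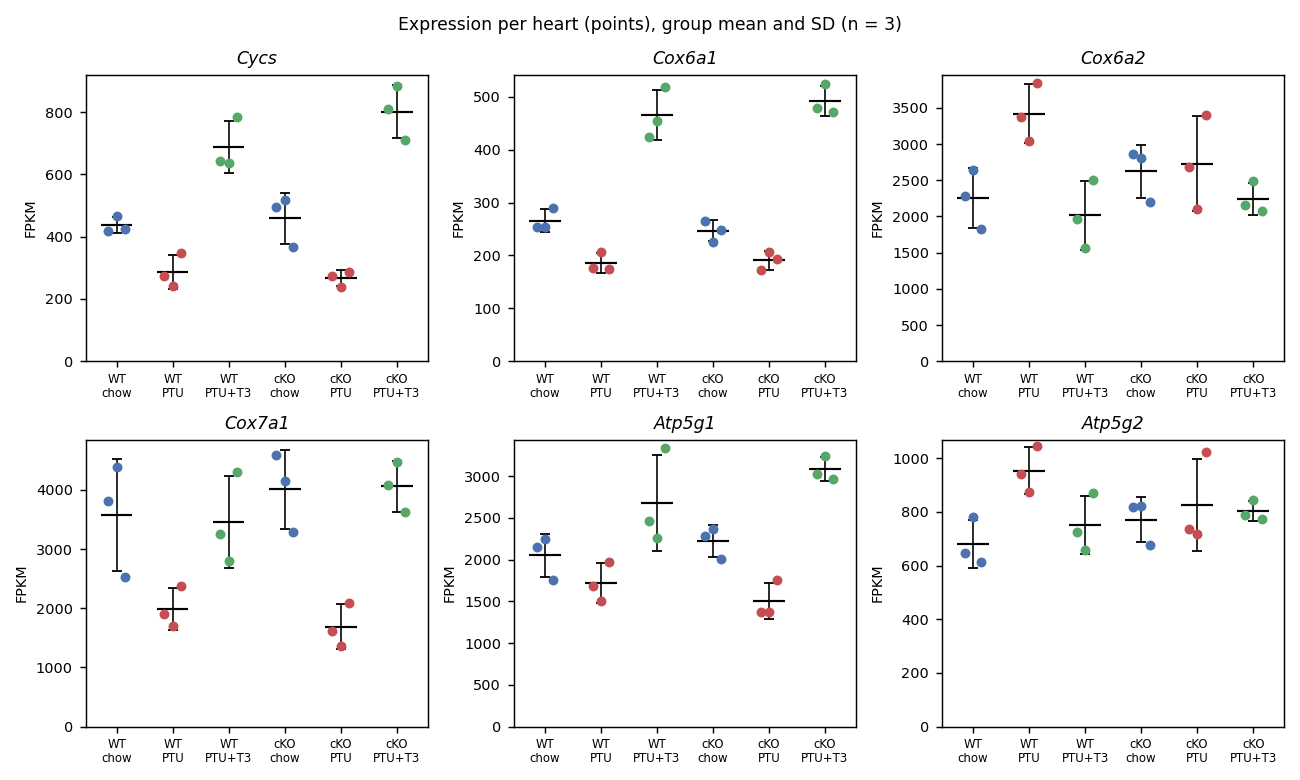
FPKM of Cycs, Cox6a1, Cox6a2, Cox7a1, Atp5g1 and Atp5g2 is plotted for every heart (points) by group, with the group mean and SD (n = 3) as bars, on linear axes that start at 0. For Cycs the PTU hearts of both genotypes lie between 238 and 348 FPKM and the T3 hearts between 637 and 883 FPKM.

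Complex IV members moved in opposite directions within the complex. After T3, 5 of 17 rose and Cox6a2 fell in WT hearts, beside 22.3% and 21.8% of all tested genes, with a median difference of 0.24. In hearts labelled cKO 10 rose and none fell, beside 24.9% and 21.8% of all tested genes, with a median of 0.42. Quantile normalization gave 6 higher and 3 lower, and 8 and 3, in the genotypes in turn, and the scale set to the median member gave 4 and 6 in each. On PTU, 1 rose and 3 fell in WT hearts, beside 8.02% and 8.76% of all tested genes. In hearts labelled cKO none rose and 4 fell, beside 6.44% and 9.59% of all tested genes. In WT hearts all the called members but Cox5a belong to subunits with 2 gene forms.

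Subunit 6a, a small regulatory subunit, showed the clearest contrast between its gene forms. Cox6a1, the common form (chromosome 5, 115345642 to 115348981, minus strand), measured 254, 253 and 291 FPKM on chow, 175, 207 and 174 on PTU and 424, 455 and 518 on PTU with T3 in WT hearts. Its cKO values were 265, 226 and 249 FPKM on chow, 172, 207 and 194 on PTU and 480, 524 and 472 on PTU with T3. No 2 treatments overlapped in either genotype, with PTU lowest and T3 highest. Cox6a1 rose after T3 by 1.33 (SE 0.107, adjusted p = 1.903e-07 by limma) in WT hearts and by 1.36 (adjusted p = 1.184e-07) in hearts labelled cKO, called in each fit without 1 heart and without the atrial-high hearts. On PTU it fell by 0.52 in WT hearts (adjusted p = 0.00401) and by 0.37 in hearts labelled cKO (adjusted p = 0.0294). The WT fall had an adjusted p of 0.124 on the scale set to the median member and of 0.115 without the atrial-high hearts. The cKO fall was lost without cKO PTU replicate 1 or 3 or cKO chow replicate 1 or 3, at adjusted p-values of 0.0519 to 0.127.

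Cox6a2, the heart and muscle form (chromosome 7, 128205435 to 128206387, minus strand), went the other way in WT hearts. It measured 2283, 2648 and 1830 FPKM on chow, 3376, 3046 and 3846 on PTU and 1971, 1565 and 2507 on PTU with T3 in WT hearts. The values were 2859, 2810 and 2204 FPKM on chow, 2688, 2101 and 3403 on PTU and 2161, 2490 and 2081 on PTU with T3 in hearts labelled cKO. All WT PTU hearts lay above all other WT hearts, whereas the groups labelled cKO overlapped. The locus given with the FPKM of Cox6a2, chromosome 7, 128173945 to 128206366, is much wider than the gene. Its values may therefore draw on other genes of that stretch, which was not tested. Cox6a2 rose by 0.61 on PTU in WT hearts (SE 0.198, adjusted p = 0.0441 by limma), a call kept only when WT chow replicate 2 was the heart left out and otherwise at adjusted p-values of 0.0508 to 0.172. After T3 it fell by 0.79 in WT hearts (adjusted p = 0.00457), called in each fit without 1 heart. The differences in hearts labelled cKO were 0.04 on PTU (adjusted p = 0.918) and -0.26 after T3 (adjusted p = 0.298). The PTU differences of the 2 genotypes were themselves -0.57 apart (95% interval -1.17 to 0.02, adjusted p = 0.764), so a difference between genotypes was not shown.

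Subunit 7a behaved otherwise, since here the muscle form fell on PTU. Cox7a1 (chromosome 7, 30184144 to 30186078, plus strand) measured 3808, 4385 and 2533 FPKM on chow, 1895, 1697 and 2373 on PTU and 3255, 2791 and 4309 on PTU with T3 in WT hearts. Its values in hearts labelled cKO were 4598, 4152 and 3288 FPKM on chow, 1610, 1354 and 2096 on PTU and 4083, 4477 and 3625 on PTU with T3. The PTU hearts lay below all others of their genotype, with WT chow replicate 3 the closest. Cox7a1 fell on PTU by 0.82 in WT hearts (SE 0.222, adjusted p = 0.0183 by limma) and by 1.26 in hearts labelled cKO (adjusted p = 0.00159). It rose after T3 by 0.79 in WT hearts (adjusted p = 0.00927) and by 1.29 in hearts labelled cKO (adjusted p = 0.000207). The cKO calls were made in each fit without 1 heart; the WT fall was lost without WT PTU replicate 1 or 2 or WT chow replicate 1 or 2 (0.0593 to 0.0830), and the WT rise without T3 replicate 3 (0.0506).

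Cox7a2, the common form of subunit 7a, moved less. It measured 712, 765 and 791 FPKM on chow, 726, 704 and 683 on PTU and 831, 836 and 822 on PTU with T3 in WT hearts. The hearts labelled cKO had 732, 628 and 646 FPKM on chow, 716, 651 and 840 on PTU and 997, 860 and 904 on PTU with T3. All T3 hearts lay above all PTU hearts, and the chow and PTU hearts overlapped. The T3 difference was 0.24 in WT hearts (adjusted p = 0.0706 by limma), and Cox7a2 rose by 0.33 in hearts labelled cKO (adjusted p = 0.0145), a call lost without cKO PTU replicate 2 or T3 replicate 1 (0.0782 and 0.0719).

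Cox7a2l encodes a relative of subunit 7a known for a part in supercomplexes of complexes III and IV, which were not measured here. Its values were 348, 343 and 330 FPKM on chow, 307, 319 and 397 on PTU and 391, 402 and 443 on PTU with T3 in WT hearts, and 375, 358 and 321, then 299, 281 and 349, then 466, 486 and 426 in hearts labelled cKO. WT PTU replicate 3 at 397 overlapped the WT T3 hearts, and the groups labelled cKO did not overlap between PTU and T3. The T3 difference was 0.28 in WT hearts (adjusted p = 0.0513 by limma), and the gene rose by 0.57 in hearts labelled cKO (adjusted p = 0.000561).

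Of subunit 8, Cox8a, the common form, rose after T3 in both genotypes. It measured 523, 550 and 524 FPKM on chow, 446, 490 and 403 on PTU and 658, 722 and 705 on PTU with T3 in WT hearts. The corresponding cKO values were 491, 461 and 515 FPKM on chow, 406, 498 and 489 on PTU and 648, 731 and 736 on PTU with T3. The T3 hearts lay above all chow and PTU hearts in both genotypes. The rise over PTU was 0.64 in WT hearts (SE 0.101, adjusted p = 0.000108 by limma) and 0.60 in hearts labelled cKO (adjusted p = 0.000153), called in each fit without 1 heart. On the scale set to the median member the cKO difference was 0.17 (adjusted p = 0.407).

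Cox8b, the muscle form, was not called on either treatment. It measured 2552, 2752 and 1907 FPKM on chow, 2052, 2235 and 2697 on PTU and 1628, 1454 and 2272 on PTU with T3 in WT hearts. Its values in hearts labelled cKO were 2625, 2723 and 2380 FPKM on chow, 2114, 1512 and 2444 on PTU and 1945, 2059 and 1974 on PTU with T3. The groups overlapped in both genotypes between PTU and T3. The T3 difference was -0.40 in WT hearts (adjusted p = 0.101 by limma) and 0.01 in hearts labelled cKO, the latter -0.30 under quantile normalization and -0.43 on the scale set to the median member.

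Subunit 4, which takes part in allosteric control of the oxidase, was not called on any treatment. Cox4i1, its main form, measured 3038, 3447 and 2642 FPKM on chow, 3209, 3016 and 3775 on PTU and 2819, 2234 and 3490 on PTU with T3 in WT hearts. Cox4i1 cKO values were 3572, 3484 and 3236 FPKM on chow, 2726, 2494 and 3587 on PTU and 3114, 3505 and 2914 on PTU with T3. Cox4i2, the form known from lung and low oxygen, measured 14.4, 11.9 and 12.0 FPKM on chow, 10.9, 13.8 and 16.4 on PTU and 11.2, 10.8 and 18.7 on PTU with T3 in WT hearts, and lay between 12.4 and 19.0 FPKM in hearts labelled cKO. PTU and T3 hearts overlapped in WT for both genes and in hearts labelled cKO for Cox4i1. For Cox4i2 the T3 hearts labelled cKO lay narrowly above their PTU hearts, with both groups reaching 15.8 FPKM as rounded.

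Cox6b2, known as the testis form of subunit 6b, was low throughout, and its log2 differences carry the largest errors. Its WT values were 4.72, 5.40 and 7.11 FPKM on chow, 1.37, 2.22 and 1.90 on PTU and 5.13, 3.39 and 4.48 on PTU with T3. For cKO they were 4.46, 8.17 and 1.85 FPKM on chow, 0.843, 1.09 and 1.84 on PTU and 3.42, 5.34 and 5.81 on PTU with T3. PTU hearts lay below chow and T3 hearts in WT, and by a hair in hearts labelled cKO, where chow replicate 3 stood at 1.85. Cox6b2 fell on PTU by 1.25 in WT hearts (SE 0.316, adjusted p = 0.0140 by limma) and by 1.24 in hearts labelled cKO (adjusted p = 0.0162). It rose after T3 by 0.91 in WT hearts (adjusted p = 0.0287 by limma) and by 1.375 in hearts labelled cKO (adjusted p = 0.00234). The cKO rise was called in each fit without 1 heart. The WT fall was lost without WT PTU replicate 1 (0.0572) or WT chow replicate 3 (0.0573), the cKO fall without cKO PTU replicate 1 or cKO chow replicate 1 or 2 (0.0602 to 0.0674), and the WT rise without WT PTU replicate 1 or 3 or T3 replicate 1 or 3 (0.0571 to 0.0963). The fifth complex IV gene to rise in WT hearts was Cox5a, a matrix-side subunit that binds a thyroid hormone metabolite, by 0.54 (adjusted p = 0.0218), lost without WT PTU replicate 1 or 2 or T3 replicate 1 or 3 (0.0505 to 0.109).

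In complex V, 3 of the 15 subunits were called higher after T3 in WT hearts (20%), near the 22.3% of all tested genes, and 7 in hearts labelled cKO (46.7%), beside 24.9% of all genes, and none fell. The median difference was -0.01 in WT hearts and 0.37 in hearts labelled cKO. Quantile normalization gave 4 higher and 3 lower in WT hearts and 4 and 2 in hearts labelled cKO, and the scale set to the median member gave 3 and 6, and 4 and 5. On PTU, 1 subunit gene rose in WT hearts, beside 8.02% of all tested genes, and 1 fell in hearts labelled cKO, beside 9.59%. Atp5b, the catalytic beta subunit, differed after T3 by -0.16 in WT hearts and by 0.15 in hearts labelled cKO, neither called.

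The c ring is encoded by 3 genes whose mature proteins are identical and whose import signals differ. Atp5g1 (chromosome 11, 96068852 to 96075670, minus strand) measured 2147, 2243 and 1754 FPKM on chow, 1686, 1504 and 1971 on PTU and 2459, 2252 and 3331 on PTU with T3 in WT hearts. Its cKO values were 2285, 2371 and 2009 FPKM on chow, 1376, 1372 and 1752 on PTU and 3028, 3241 and 2967 on PTU with T3. All T3 hearts lay above all PTU hearts, and WT PTU replicate 3 lay within the chow range. Atp5g1 rose after T3 by 0.63 (SE 0.156, adjusted p = 0.00411 by limma) in WT hearts and by 1.05 (adjusted p = 5.487e-05) in hearts labelled cKO, called in each fit without 1 heart. On PTU it fell by 0.57 in hearts labelled cKO (adjusted p = 0.0210), lost without cKO PTU replicate 1 or 2 or cKO chow replicate 1 or 2 (0.0670 to 0.0790).

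Atp5g2 (chromosome 15, 102662864 to 102672352, minus strand) was the complex V gene that rose on PTU in WT hearts. It measured 647, 782 and 613 FPKM on chow, 943, 872 and 1046 on PTU and 726, 659 and 869 on PTU with T3 there. Hearts labelled cKO had 818, 820 and 675 FPKM on chow, 737, 716 and 1022 on PTU and 786, 844 and 774 on PTU with T3. All WT PTU hearts lay above the other WT hearts, and the groups labelled cKO overlapped. The WT rise was 0.49 (SE 0.147, adjusted p = 0.0316 by limma), lost without WT PTU replicate 1 or 3 or WT chow replicate 1 or 3 (0.0757 to 0.113), and the difference in hearts labelled cKO was 0.08. After T3 the differences were -0.35 in WT hearts (adjusted p = 0.0652) and -0.02 in hearts labelled cKO.

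Atp5g3, the most abundant of the c-subunit genes here, measured 2793, 3324 and 2465 FPKM on chow, 2656, 2464 and 3351 on PTU and 3435, 2664 and 4402 on PTU with T3 in WT hearts. Its cKO values were 3318, 3682 and 2687 FPKM on chow, 2397, 2212 and 2946 on PTU and 3863, 4429 and 3671 on PTU with T3. The WT groups overlapped, whereas the T3 hearts labelled cKO lay above all their PTU hearts. Atp5g3 differed after T3 by 0.29 in WT hearts (adjusted p = 0.224 by limma) and rose by 0.67 in hearts labelled cKO (adjusted p = 0.00830).

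Outside the c ring, the WT rises were in Atp5d, the delta subunit of the F1 head's central stalk, and Atp5f1, the b subunit of the peripheral stalk. Atp5d measured 879, 1048 and 836 FPKM on chow, 822, 721 and 928 on PTU and 1218, 1049 and 1515 on PTU with T3 in WT hearts, and 1107, 1115 and 825, then 680, 693 and 875, then 1434, 1662 and 1318 in hearts labelled cKO. Atp5f1 measured 776, 792 and 689 FPKM on chow, 682, 573 and 836 on PTU and 981, 882 and 1074 on PTU with T3 in WT hearts, and 874, 906 and 654, then 637, 538 and 702, then 1099, 1205 and 1037 in hearts labelled cKO. For both genes all T3 hearts lay above all PTU hearts of their genotype. The locus given with the FPKM of Atp5d, chromosome 10, 79697304 to 80369637, is the widest among the members. Its values may therefore draw on other genes of that stretch, which was not tested. Atp5d was also not among the authors' own calls for T3 against PTU in WT hearts. Atp5d rose after T3 by 0.61 in WT hearts (adjusted p = 0.00732 by limma; 0.0514 without the atrial-high hearts) and by 0.98 in hearts labelled cKO. Atp5f1 rose by 0.50 in WT hearts (adjusted p = 0.0142), lost without WT PTU replicate 2 (0.0785) or T3 replicate 3 (0.0568), and by 0.84 in hearts labelled cKO. The other rises in hearts labelled cKO were small: Atp5k at 0.45, Atp5l at 0.41 and Atp5j2 at 0.37, all of the membrane part, with calls lost on leaving out single hearts (0.0530 to 0.203, for cKO PTU replicates 1 and 2 and T3 replicates 1 and 2, and for Atp5j2 also T3 replicate 3).

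The 2 genes that only carry the name moved apart. Atp5s, known as a coupling factor related to the enzyme, measured 16.0, 16.3 and 13.5 FPKM on chow, 21.4, 18.3 and 25.9 on PTU and 16.5, 14.6 and 17.0 on PTU with T3 in WT hearts, and lay between 13.6 and 22.0 FPKM in hearts labelled cKO. The WT PTU hearts lay above all other WT hearts. Atp5s rose by 0.48 on PTU (adjusted p = 0.0417 by limma) and fell by 0.41 after T3 (adjusted p = 0.0386) in WT hearts, and each call was lost without any one of 5 of the 6 hearts compared, WT PTU replicate 2 excepted (0.0538 to 0.173). Atp5sl, a relative of Atp5s, rose after T3 by 0.39 in WT hearts (adjusted p = 0.0236), lost without WT PTU replicate 1 or 2 or T3 replicate 3 (0.0670 to 0.106), and by 0.74 in hearts labelled cKO.

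Within a subunit, the share of FPKM taken by 1 gene form is free only of a shift that all its forms take equally. In WT PTU replicate 3, 41 of 44 members lay above the group mean. There Cox6a2, Cox7a1 and Cox8b were the highest of the WT PTU hearts, and Cox6a1, Cox7a2 and Cox8a the lowest. Shares can therefore move with the shift of a heart, and its part in the steps below was not tested. Shares were compared over both genotypes, 6 hearts against 6, with an exact two-sided permutation test within genotype that cannot go below 0.005, adjusted over 16 tests. Cox6a2 took 90.3% of the subunit 6a sum on chow, 94.0% on PTU and 81.4% on PTU with T3. Both steps passed (adjusted exact p = 0.0218 and 0.01), and all 6 T3 hearts, at 77.5% to 82.9%, lay below all PTU hearts, at 91.0% to 95.7%. By genotype the share went from 89.2% ± 2.58 to 94.8% ± 1.04 and 80.9% ± 2.97 in WT hearts (SD, n = 3 each) and from 91.3% ± 1.36 to 93.2% ± 1.91 and 82.0% ± 0.562 in hearts labelled cKO. The limit given above for the wide locus of Cox6a2 holds for this share too. Cox8b took 82.8% of the subunit 8 sum on chow and 82.3% on PTU (adjusted exact p = 0.79), and 72.7% on PTU with T3 (adjusted exact p = 0.01). The muscle forms of both subunits thus held a smaller share after T3.

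Cox7a1 moved the other way, taking 83.7% of the subunit 7a sum on chow, 71.5% on PTU (adjusted exact p = 0.016) and 80.8% on PTU with T3 (adjusted exact p = 0.016). The step on PTU was -8.32 percentage points in WT hearts, where the hearts overlapped, and -16.2 in hearts labelled cKO, where they did not. Cox6b2 took 0.222% of the subunit 6b sum on chow, 0.0722% on PTU and 0.17% on PTU with T3 (adjusted exact p = 0.01 for both steps). Cox4i2 took 0.452% of the subunit 4 sum on chow, 0.436% on PTU and 0.492% on PTU with T3, and neither step passed (adjusted exact p = 0.72 and 0.14).

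Of the c-subunit genes, Atp5g1 took 36.3% on chow, 31.2% on PTU and 39.0% on PTU with T3, and Atp5g2 took 12.3%, 17.2% and 10.6%. All these steps had an adjusted exact p of 0.01, and the PTU hearts of both genotypes lay apart from the chow and the T3 hearts in both shares. Atp5g3 held 51.4%, 51.7% and 50.5%, with adjusted exact p = 0.79 and 0.215. These shares divide by the same sum, so with Atp5g3 nearly level a fall of Atp5g1 goes with a rise of Atp5g2. Both steps also use the same PTU hearts, so these exact p-values are not independent. Within 1 genotype the same test cannot go below 0.1, so these steps have no test by genotype.

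**Figure D4:**
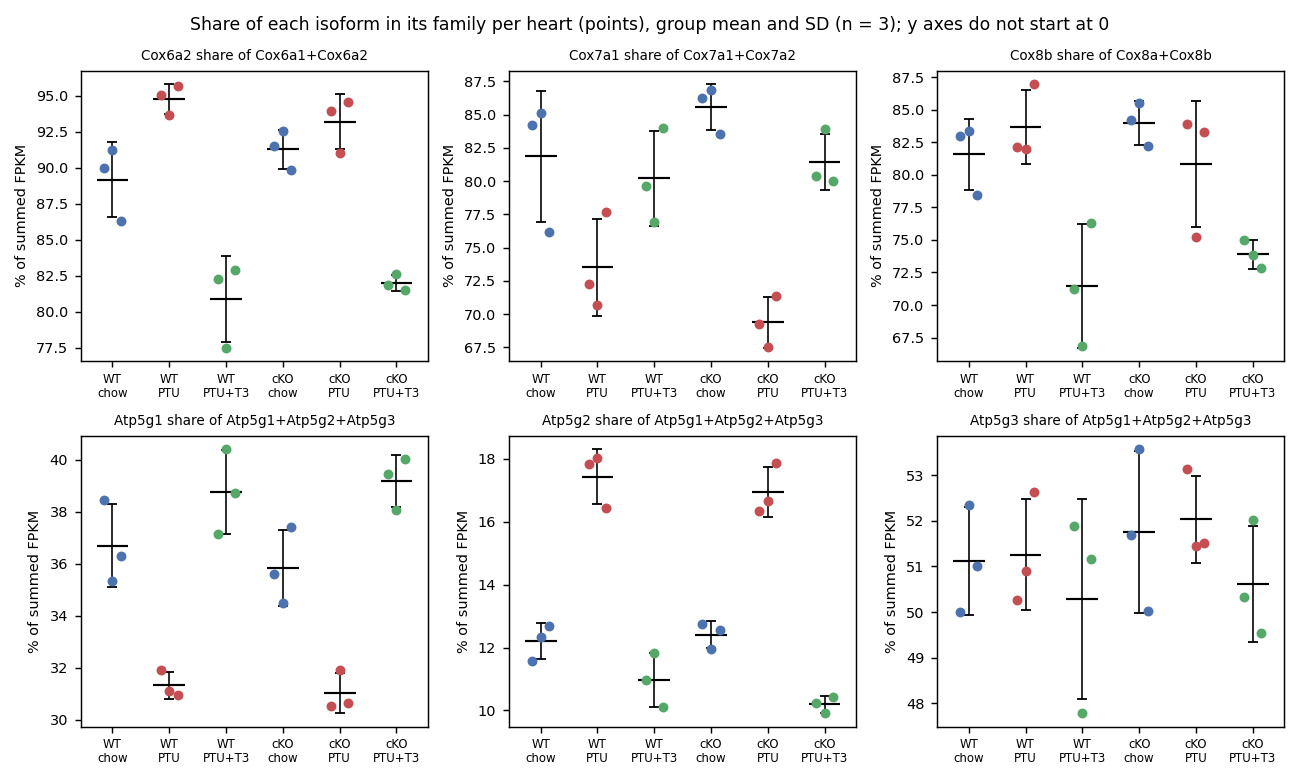
The share of each gene form in its subunit's summed FPKM, in percent, is plotted for every heart (points) by group, with group mean and SD (n = 3), on axes that do not start at 0. For Atp5g2 the T3 hearts lie at 9.91% to 11.8%, overlapping the chow hearts in WT, and the PTU hearts lie apart, from 16.4% upward.

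Set against chow, hearts with T3 after PTU had fewer called members than when set against PTU. In WT hearts 3 of 44 were higher and none lower, beside 7.68% and 7% of all genes: Cox6a1 by 0.80 (adjusted p = 0.000216 by limma), Cycs by 0.65 (adjusted p = 0.0102) and Cox8a by 0.38 (adjusted p = 0.0190). The count came to 1 without WT PTU with T3 replicate 3, where Cycs had an adjusted p of 0.0542 and Cox8a of 0.0597. The WT call of Cox8a was also lost without T3 replicate 2 (0.0579), chow replicate 1 (0.0644) or chow replicate 3 (0.0529). In hearts labelled cKO 8 were higher and none lower, beside 11.7% and 9.15% of all genes: Cox6a1 by 1.0, Cycs by 0.81, Atp5d by 0.54, Cox8a by 0.53, Cox7a2, Atp5g1 and Atp5f1 by 0.46 to 0.47 and Cox7a2l by 0.39. That count came to 4 without cKO PTU with T3 replicate 1 or 2 or cKO chow replicate 3. Cox6a1, Cycs and Cox8a were the members called in both genotypes, and of these Cox6a1 was called in each fit without 1 heart in both.

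No member differed between hearts labelled cKO and WT hearts on chow, on PTU, on PTU with T3 or averaged over treatments, and no interaction of PTU or of T3 with genotype was called by limma (0% of all tested genes in each of the 6 comparisons). At an unadjusted p under 0.05 the members numbered 0, 0, 0, 1, 0 and 0 in that order, where all genes numbered 394, 491, 434, 209, 805 and 821. The authors' deposited tables likewise held no member at q under 0.05 in their 3 genotype comparisons, beside 0.332% of their genes higher and 0.332% lower on chow, 0.698% and 0.252% on PTU and 0.156% and 0.835% on PTU with T3. Most members lay to 1 side: the T3 difference was larger in hearts labelled cKO for 43 of 44, with a median of 0.33 where all genes had 0.03, and the PTU difference was lower for 40 of 44, with a median of -0.24 where all genes had -0.01. These comparisons share libraries in which members shifted together, so the numbers of members on 1 side carry no test. The member with the smallest T3 interaction p was Cyc1, at 0.39 (95% interval -0.03 to 0.81, adjusted p = 0.696), an interval that holds 0 and also values above its WT rise.

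The authors' deposited tables, which use their own test, held 3 members higher and 4 lower at q under 0.05 for PTU against chow in WT hearts, beside 7.58% and 9.25% of the genes they tested, and all 7 were called by limma too. In the authors' deposited table for T3 against PTU in WT hearts, 11 members were higher and 2 lower, beside 19.1% and 16.5% of their genes, and all 13 were called by limma. For T3 against chow in WT hearts the authors' deposited table held 2 members higher and none lower, beside 6.66% and 5.78% of their genes: Cycs and Cox6a1, but not Cox8a, at q = 0.0741, the third limma call. The 2 limma calls absent from the authors' deposited table for T3 against PTU were Uqcrb, at q = 0.0501, and Atp5d, at q = 0.569.

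**Figure D5:**
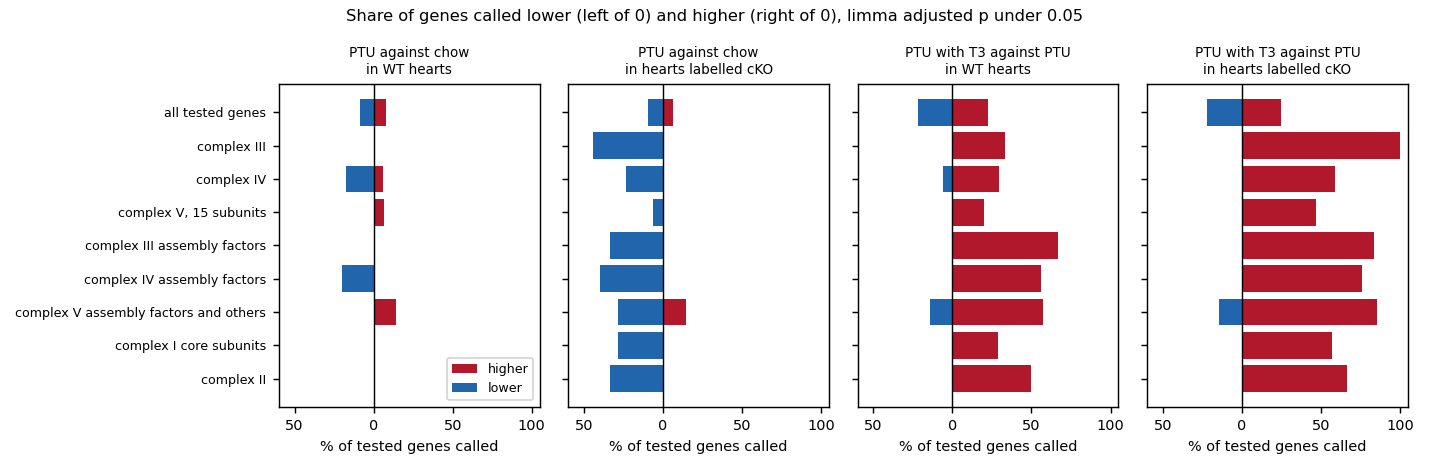
The percentage of tested genes called higher and lower is plotted for all tested genes, for the members by complex, for the lists of assembly factors and for complexes I and II, in 1 panel per comparison; bars to the left of 0 are lower, bars to the right higher. After T3 in hearts labelled cKO all 9 complex III members lie to the right, beside 24.9% of all genes.

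Of all tested genes 22.3% were called higher and 21.8% lower after T3 in WT hearts, and 24.9% and 21.8% in hearts labelled cKO; the lists of other genes below are counts to be set beside these shares. Of 25 complex IV assembly factors, 14 rose and none fell in WT hearts (56% higher) and 19 rose in hearts labelled cKO (76%); quantile normalization gave 14 higher and 2 lower, and 18 and 1, and the scale set to the median member gave 9 and 2, and 9 and 3. On PTU 5 fell in WT hearts, beside 8.76% of all tested genes, and 10 in hearts labelled cKO, beside 9.59%. None rose on PTU, beside 8.02% and 6.44% of all tested genes. The largest change was in Higd1a, a small inner membrane protein that binds the oxidase, which fell by 1.18 on PTU and rose by 2.28 after T3 in WT hearts (adjusted p = 2.829e-09 by limma). Cmc2 rose by 1.10 and Coa5 by 1.07 in WT hearts after T3; both are small assembly proteins. Of 6 complex III assembly factors 4 rose in WT hearts, among them Uqcc1 by 0.92 and Bcs1l, which inserts the Rieske protein, by 0.59, and 5 rose in hearts labelled cKO. Of 7 assembly factors and other proteins of the ATP synthase 4 rose and 1 fell in WT hearts: Tmem242 rose by 0.79 and Tmem70 by 0.70, and Atpif1, the inhibitor of ATP hydrolysis, fell by 0.74 after T3 and rose by 0.70 on PTU.

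Hccs, the lyase that attaches haem to cytochrome c, fell by 0.64 on PTU (adjusted p = 0.00273 by limma) and rose by 1.42 after T3 in WT hearts, and rose by 1.75 in hearts labelled cKO. Of the 5 genes of cytochrome c import, haem attachment and apoptosis, Bak1, a pore-forming protein of the outer membrane, rose by 1.18 and Casp9, the caspase activated downstream of cytochrome c, fell by 0.64 after T3 in WT hearts. Among 7 carrier and channel genes for ADP, ATP and phosphate 2 rose in WT hearts (28.6%, near the 22.3% of all genes), with Slc25a5, an ADP/ATP carrier, at 0.96. Of 7 complex I core subunits 2 rose in WT hearts (28.6%, likewise near that share) and 4 in hearts labelled cKO (57.1%), and of 6 complex II genes 3 (50%) and 4 (66.7%).

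The 18 regulators of mitochondrial genes moved in both directions: 4 rose (22.2%, about the 22.3% of all genes) and 7 fell (38.9%, beside 21.8%) after T3 in WT hearts, and 7 rose (38.9%, beside 24.9%) and 3 fell (16.7%, beside 21.8%) in hearts labelled cKO. Ppargc1a, the coactivator of mitochondrial biogenesis, rose by 1.10 on PTU and fell by 1.55 after T3 in WT hearts, opposite in direction to Cycs. Of the thyroid hormone receptors Thra rose by 0.88 on PTU and fell by 1.43 after T3, and Thrb rose by 1.0 after T3. Thra overlaps a gene on the other strand, and the libraries do not mark strand. Its values can therefore include reads of that gene, and its differences are uncertain to that extent.

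Counts of called cell type markers are to be set beside the shares of all tested genes. On PTU these were 8.02% higher and 8.76% lower in WT hearts and 6.44% and 9.59% in hearts labelled cKO. After T3 they were 22.3% and 21.8% in WT hearts and 24.9% and 21.8% in hearts labelled cKO. On PTU 4 of 6 macrophage markers (C1qa, C1qb, Cd68 and Mrc1) were lower in WT hearts and none was called in hearts labelled cKO. After T3, 5 of the 6 were higher in WT hearts and 4 in hearts labelled cKO, with summed levels of 246 to 340 FPKM in WT T3 hearts against 77.8 to 128 in WT PTU hearts. Of 7 cardiomyocyte markers 2 were higher and 2 lower after T3 in WT hearts, near the shares of all genes, and 5 higher in hearts labelled cKO. On PTU 2 (Actc1 and Myh6) were lower and Tnnt2 was higher in WT hearts and 3 were lower in hearts labelled cKO. No atrial or fibroblast marker was called in any of these comparisons. Of the 2 skeletal muscle markers that could be tested both were higher after T3 in WT hearts and 1 in hearts labelled cKO, and the summed level of the 6 markers reached at most 21.8 FPKM. The part of these shifts in the members' values was not tested.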

How the data were processed

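Poly(A) RNA of 18 mouse hearts was sequenced from libraries of the TruSeq kit, version 2, which does not mark strand, per the labels' protocols. The authors deposited FPKM values per gene and library, and tables of pairwise comparisons with group FPKM values and q-values (p-values adjusted by the authors). Bowtie2, Cufflinks and mm10 are named, without versions, per the submitters' processing notes. The sources used here do not give how multiple matches and reads in overlapping genes were counted. Deposited FPKM holds no totals of reads, so depth is unknown and no counting interval was given. Pearson's r between replicates was 0.975 to 0.992 across genes. No pair of replicates within a group held the same value above the floor for more than 1 gene. Pairs across groups were not compared.

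A gene was tested where 3 or more libraries reached 1 FPKM (12587 of 24341). In limma 3.58.1 (R 4.3.3), 6 group means were fitted to log2(FPKM + 1) of the 18 libraries (trended prior, robust, 12 residual degrees of freedom); the fit was tested on simulated data. Within a comparison p-values had Benjamini-Hochberg adjustment, with calls under 0.05. Fold changes on this scale understate the change of low genes. Isoform shares used an exact permutation test of 400 relabellings. The alternatives were other scalings, a replicate left out, no filter, other pseudocounts, sample weights, fits on the compared libraries, and fits without hearts high in atrial markers; 2 more, setting each library to its median member and leaving out the PTU hearts highest in members (replicate 3 of each genotype), were added after seeing the data. Members follow from their symbols. Values in every library are given for cytochrome c, cytochrome c1, subunits with tissue forms and, per complex, up to 3 members called higher and 3 lower with the largest change in WT hearts; Cox5a, Atp5sl, Atp5b and members named for hearts labelled cKO are given by differences. From other lists up to 3 called genes with the largest change were drawn. The members and the lists were chosen with earlier results of these data known. Gene positions are from GENCODE on GRCm38, the mm10 assembly.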

Additional observations from a re-analysis of the deposited data

How the results depend on the processing

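No paired analysis was possible because the groups share no replicate numbers in the labels. Over the alternatives, 433 of 482 recomputed counts of members came within 1.5 times of the reported count. For PTU against chow in WT hearts the 3 higher came to 1 with no filter and to 0 with only the libraries compared, without replicate 3 of both PTU groups (chosen after seeing the data), or without the atrial-high hearts; the 4 lower came to 13 under quantile normalization, 9 with sample weights and 0 without the atrial-high hearts. In hearts labelled cKO on PTU, the scale set to the median member gave 1 higher, and the 11 lower came to 3 with only the libraries compared and to 1 without the atrial-high hearts. For T3 against PTU in WT hearts the 13 higher came to 5 without the atrial-high hearts, and the 2 lower to 1 with no filter, without the PTU replicates 3 or without the atrial-high hearts, to 7 under quantile normalization and to 13 on the scale set to the median member. In hearts labelled cKO the 28 higher came to 15 on that scale and 18 without the atrial-high hearts, and the lower calls to 5 under quantile normalization and 12 on that scale. For T3 against chow in WT hearts the 3 higher came to 6 under quantile normalization and 1 without the atrial-high hearts, and the lower calls to 3 and, on the scale set to the median member, to 1. In hearts labelled cKO the 8 higher came to 2 without the atrial-high hearts, and the lower calls to 1 with only the libraries compared, 2 under quantile normalization and 4 on the scale set to the median member. Leaving out 1 replicate in turn gave 0 to 2 higher and 2 to 4 lower for PTU in WT hearts, 0 higher and 3 to 12 lower in hearts labelled cKO, 6 to 17 higher and 1 to 3 lower for T3 against PTU in WT hearts, and 19 to 29 higher and 0 lower in hearts labelled cKO. It gave 1 to 3 higher for T3 against chow in WT hearts and 4 to 9 in hearts labelled cKO, and 0 members for lower calls there and for every genotype comparison. Without the atrial-high hearts 12 of the 18 libraries remain, and the fits have fewer degrees of freedom; the cause of the other changes was not tested.

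For T3 against PTU in hearts labelled cKO, 14 members went from a difference above 0 to one below 0 on the scale set to the median member, which by its construction puts about as many members below 0 as above: Atp5b -0.285, Atp5c1 -0.279, Atp5h -0.315, Atp5j -0.176, Atp5j2 -0.064, Atp5l -0.024, Cox4i1 -0.305, Cox6b1 -0.017, Cox6c -0.389, Cox7a2 -0.105, Cox7b -0.229, Cox7c -0.269, Cox8b -0.427 and Uqcr10 -0.057. Under quantile normalization Atp5h was at -0.178, Cox6c at -0.265 and Cox8b at -0.301. The step of the Cox6a2 share on PTU was 5.608 percentage points in WT hearts alone and 1.898 in hearts labelled cKO alone, and that of Cox7a1 was -8.324 and -16.19. The other share alternatives moved by less than the spread between hearts. Depth is unknown, so how far it limits Cox6b2, Cox7b2 and the other low members cannot be given.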
